A study of Homo sapiens with 15 samples.

Results

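The metallothionein genes and the gene of their metal-sensing activator MTF1 were followed through 5 groups of K-562 cells, a human chronic myeloid leukemia line grown in suspension. The 10 genes were taken by name from a count table of 60649 genes: MT1A, MT1E, MT1F, MT1G, MT1H, MT1M, MT1X, MT2A, MT3 and MTF1. One group of 3 libraries was untreated, with no vehicle named in the labels. The other 4 groups, of 3 libraries each, came from cells exposed for 24 h to martinostat, a hydroxamate inhibitor of histone deacetylases (HDAC), at 0.15, 0.25, 0.5 or 1 µM. All 15 libraries were poly(A)-selected mRNA from the same line and medium, and the comparisons address how the mRNA level of each gene depended on the concentration of the inhibitor. The labels call the replicates biological without saying how the cultures were separated, so p-values measure the spread between these libraries.

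Metallothioneins are small, cysteine-rich proteins that bind zinc, copper and cadmium. They buffer free zinc, protect cells from toxic metals and take part in the response to oxidative stress. MTF1, a zinc-finger transcription factor, binds short promoter sequences called metal response elements when zinc is high, and thereby switches on metallothionein genes and the zinc exporter gene SLC30A1. In humans the functional MT1 and MT2 genes lie together on chromosome 16, while MT3 and MT4 are best known from brain and stratified epithelium, respectively.

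On the hg38 build the 9 metallothionein members lay within 95.12 kb at chr16:56589074-56684196. MT2A (ENSG00000125148.7) was at chr16:56608584-56609497 on the plus strand, and MT1G (ENSG00000125144.14) at chr16:56666730-56668065 was the member on the minus strand. MT1X (ENSG00000187193.9) was at chr16:56682470-56684196, and 18.6% of its exon bases lay under a long non-coding RNA on the same strand that had 0 counts in every group. Both genes start at the same base, and the reference transcript of MT1X has 404 bases. How reads under both genes were counted is not given, so the 0 counts do not show that the MT1X counts are complete. MTF1 (ENSG00000188786.10) was on another chromosome, at chr1:37809574-37859592 on the minus strand. Reads from close paralogs can be misassigned by a counter. Of the 100-base windows in each reference transcript, 4.33% for MT1E and 0.23% for MTF1 occurred more than once in the genome or in another member's transcript, and 0% for the other members. Only exact matches were counted, so nearly identical paralogs were not found. Windows over an exon junction, 163 of 302 for MT2A, have no copy of their own in the genome. The 0% therefore does not show that reads of close paralogs were kept apart.

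The promoters show what the abundant, the moderate and the nearly silent member carried just before the start of the gene. Promoters of 4 of the 10 members were found in RefSeq (GRCh38.p14), those of MT1H, MT1X, MT2A and MTF1, and the 250 bases before the start were searched on both strands for the core of the metal response element, TGCACNC or TGCGCNC. The following sequences run 5′ to 3′ on the plus strand, with the cores in capitals. They lie at chr16:56608334-56608583 (MT2A), chr16:56682220-56682469 (MT1X) and chr16:56669564-56669813 (MT1H).
MT2A: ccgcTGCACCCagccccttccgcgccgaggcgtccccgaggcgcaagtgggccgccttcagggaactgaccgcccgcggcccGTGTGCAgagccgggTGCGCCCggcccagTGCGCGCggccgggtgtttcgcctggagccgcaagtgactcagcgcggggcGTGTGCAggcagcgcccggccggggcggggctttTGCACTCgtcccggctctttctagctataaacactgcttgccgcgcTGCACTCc
MT1X: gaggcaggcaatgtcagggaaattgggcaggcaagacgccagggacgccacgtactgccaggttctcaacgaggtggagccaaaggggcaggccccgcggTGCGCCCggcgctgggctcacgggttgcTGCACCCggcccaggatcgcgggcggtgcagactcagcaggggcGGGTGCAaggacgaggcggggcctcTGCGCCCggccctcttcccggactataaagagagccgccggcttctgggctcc
MT1H: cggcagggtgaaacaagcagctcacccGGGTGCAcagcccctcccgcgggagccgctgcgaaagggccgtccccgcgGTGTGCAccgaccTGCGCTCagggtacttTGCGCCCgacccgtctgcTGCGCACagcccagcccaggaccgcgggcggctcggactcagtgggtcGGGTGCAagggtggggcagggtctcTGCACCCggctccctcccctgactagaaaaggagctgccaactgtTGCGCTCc
MT2A held 7 cores, MT1H 8 and MT1X 4, whereas the MTF1 promoter held 0. At least 1 core was present in 24.8% of 35116 RefSeq promoters, at least 4 in 0.37% and at least 7 in 0.0313%. The letters TATAAA, searched on both strands, occurred in the windows of MT2A and MT1X and not in those of MT1H and MTF1, and in 10.7% of all promoters. A core is a match of letters and not a measured binding site.

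Libraries held 23755510 to 32805574 counts. Values are counts per 1000000 (CPM) after TMM scaling, the weighted trimmed-mean method of edgeR, and a gene was called when its adjusted p in edgeR's quasi-likelihood test was under 0.05. The K-562 markers HBZ, GATA1 and TFRC had counts in every library, but HBZ, an embryonic globin gene, went from 985, 1090 and 1080 CPM in the untreated libraries to 85, 74 and 93.3 CPM at 1 µM. Of 10 markers of other cell types, the summed level was 170 to 187 CPM in untreated libraries and 332 to 523 CPM at 1 µM, where COL1A1, a collagen gene of fibroblasts, contributed 292 to 473 CPM. KRT5, a keratin gene, and MS4A1, a B-cell gene, had 0 counts in untreated cells. The part of these changes in the metallothionein levels was not tested, and in bulk RNA a change in the share of cells and a change of RNA per cell cannot be told apart. The libraries 0.25 µM replicate 3 and 0.5 µM replicate 3 stood apart from the others on the third principal component, so values without both are given where they change a call.

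Of the 10 genes, 7 passed the filter on low counts. MT1X, MT2A and MTF1 also passed it on the untreated libraries alone, but MT1A, MT1E, MT1F and MT1G passed only through the treated groups, where they were high. MT1H, MT1M and MT3 were not tested: over the 15 libraries MT1H had 9 counts in 3 libraries, MT1M 2 counts in 1 library and MT3 2 counts in 2 libraries. At both 0.15 and 0.25 µM, 6 of the 7 tested genes were called higher than in untreated cells and MTF1 lower. Of all tested genes, 51.2% were called at 0.15 µM (31.9% higher, 19.4% lower) and 62.2% at 0.25 µM (37.4% higher, 24.8% lower). At 0.5 and 1 µM all 7 tested genes were called higher, where 66.9% and 66.2% of all tested genes were called, and 39.4% and 38.8% of all were called higher. These counts are a description, since 4 of the 7 genes entered the test because of the treated libraries.

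MT2A, the most abundant metallothionein, rose in a pair of steps. It was measured at 1.35, 2.01 and 1.84 CPM in the untreated libraries, at 28.8, 24.3 and 30.5 CPM with 0.15 µM, and at 34.6, 36.6 and 27.8 CPM with 0.25 µM. With 0.5 µM it reached 135, 129 and 116 CPM, and with 1 µM 143, 107 and 131 CPM. Every treated library lay above the untreated range, the libraries at 0.5 and 1 µM lay above those at 0.15 and 0.25 µM, and within each of these pairs of doses the libraries overlapped. The mean rose from 1.73 ± 0.342 to 127 ± 18.2 CPM (SD, n = 3 each) at 1 µM, a log2 fold change of 6.19 (SE 0.20, adjusted p = 2.63e-14). At the lowest dose the log2 fold change already stood at 4.00 (SE 0.19, adjusted p = 8.42e-12). At 1 µM 1607 other tested genes had a log2 fold change at least as large, of which 20 also had at least the CPM of MT2A.

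MT1X, the other metallothionein that passed the filter on the untreated libraries alone, had lower log2 fold changes than MT2A at every dose. Untreated libraries had 1.06, 0.733 and 1.02 CPM of it, those with 0.15 µM had 2.42, 3.00 and 2.78 CPM, and those with 0.25 µM had 5.01, 4.97 and 5.70 CPM. With 0.5 µM it was at 25.7, 24.6 and 26.1 CPM, and with 1 µM at 26.1, 24.1 and 19.2 CPM. The untreated, 0.15 µM and 0.25 µM groups did not overlap with each other or with the higher doses, whereas 0.5 and 1 µM overlapped. The log2 fold changes from untreated cells were 1.54, 2.48, 4.76 and 4.62 in order of dose (SE 0.21 each, highest adjusted p = 6.3e-06).

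MT1G and MT1E had no counts in any untreated library. MT1G, on the minus strand, was at 4.77, 4.02 and 6.05 CPM with 0.15 µM, at 9.07, 9.58 and 6.95 CPM with 0.25 µM, at 21.8, 24.4 and 19.5 CPM with 0.5 µM, and at 28.2, 26.7 and 23.6 CPM with 1 µM. MT1E was at 0.983, 0.458 and 0.412 CPM with 0.15 µM, at 1.39, 0.929 and 2.00 CPM with 0.25 µM, at 7.76, 7.15 and 5.81 CPM with 0.5 µM, and at 6.38, 6.49 and 5.15 CPM with 1 µM. A count of 0 over the untreated group allows up to 3 counts, or 0.0395 CPM, by counting error only. Against this floor MT1G was at least 125-fold higher at 0.15 µM and at least 663-fold higher at 1 µM. For MT1E the corresponding bounds were 15.7-fold and 152-fold, with 175-fold at 0.5 µM.

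MT1F and MT1A reached much of their final level at the lowest dose. MT1F had 2, 2 and 4 counts in the untreated libraries, or 0.0817, 0.0772 and 0.156 CPM. It was then at 8.46, 6.98 and 6.57 CPM with 0.15 µM, at 8.13, 9.08 and 6.95 CPM with 0.25 µM, at 13.0, 12.7 and 8.85 CPM with 0.5 µM, and at 13.6, 11.2 and 9.58 CPM with 1 µM. Neighbouring doses thus overlapped, and the level was 69.6 times the untreated one at 0.15 µM (95% counting interval 35.1 to 162) and 109 times at 1 µM (55 to 253). MT1A was at 1.86, 2.26 and 3.16 CPM with 0.15 µM, at 3.01, 2.75 and 3.38 CPM with 0.25 µM, at 5.38, 5.22 and 4.16 CPM with 0.5 µM, and at 5.35, 4.42 and 5.43 CPM with 1 µM. Its 6 untreated counts all came from untreated replicate 1. At 1 µM MT1A was at 64.1 times the untreated level (95% counting interval 29.2 to 176), and without that library no untreated count remained. No test of the level against untreated cells is given for these 2 genes, which entered the fit through the treated libraries.

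The level at 0.15 µM was 63.8% of that at 1 µM for MT1F (95% interval of the fitted ratio 47 to 87.1%) and 47.9% for MT1A (28.1 to 81.8%). It was 21.9% for MT2A (17.3 to 27.7%), 18.9% for MT1G (14.2 to 25.3%), 11.8% for MT1X (9.02 to 15.5%) and 10.3% for MT1E (6.08 to 17.6%). The members therefore shared a direction but not a dose profile, as the plot of levels by library shows.

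**Figure D1:**
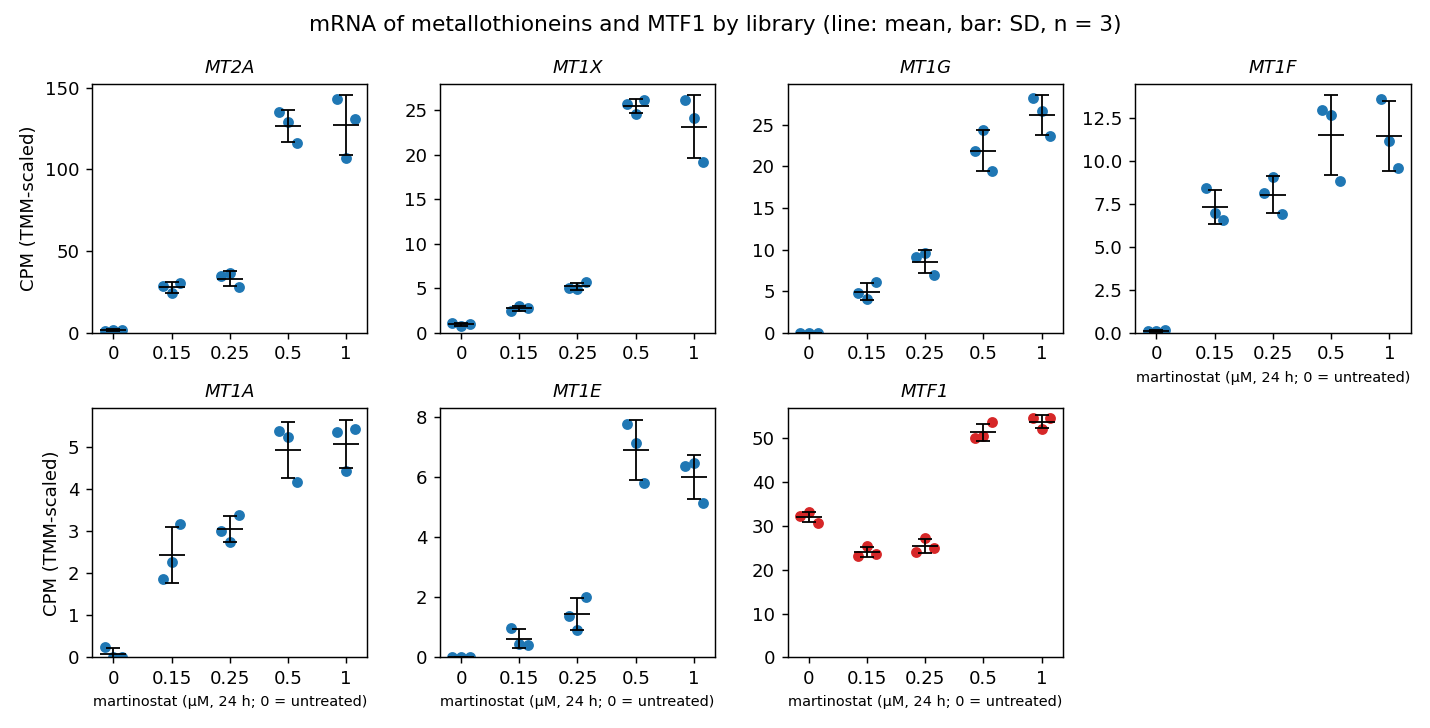
TMM-scaled CPM (y axis, linear, from 0) of 6 metallothionein genes and MTF1 against martinostat concentration (x axis, µM, not to scale). Points are single libraries, horizontal lines means and bars SD (n = 3). MT2A, MT1X, MT1G and MT1E were several times higher at 0.5 and 1 µM than at the lower doses, MT1F and MT1A less so, and MTF1 (red) lay below its untreated range at 0.15 and 0.25 µM and above it at 0.5 and 1 µM.

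MTF1, the activator, followed another course. Untreated cells held it at 32.3, 33.1 and 30.7 CPM, and treated cells at 23.1, 25.4 and 23.7 CPM with 0.15 µM, and at 24, 27.2 and 24.9 CPM with 0.25 µM. It was at 50.1, 50.4 and 53.6 CPM with 0.5 µM and at 54.7, 52.1 and 54.5 CPM with 1 µM. At 0.15 and 0.25 µM the 6 tested metallothionein genes were higher than in untreated cells, and MTF1 mRNA was not. MTF1 activity was not measured, and its part in the metallothionein levels was not tested. The rise of MTF1 at 1 µM had a log2 fold change of 0.75 (SE 0.12, adjusted p = 1.79e-05) and was called under all 26 alternative settings. The lower calls were small, a log2 fold change of −0.41 at 0.15 µM (adjusted p = 0.00675) and −0.34 at 0.25 µM (adjusted p = 0.0182), and they depended on the settings. With library totals alone these values were −0.05 (adjusted p = 0.779) and 0.18 (adjusted p = 0.276), so MTF1 is not called lower on that scale and its direction at 0.25 µM is reversed. Of 26 alternatives, 5 did not call MTF1 lower at 0.15 µM and 10 did not at 0.25 µM. At 0.25 µM this included leaving out untreated replicate 2 (adjusted p = 0.0619), 0.25 µM replicate 1 (0.0627) or 0.25 µM replicate 3 (0.0645), and fitting only the 2 groups (0.0973). Over all tested genes the median shift was 0.28 to 0.34 on the log2 scale with TMM and 0.64 to 0.84 with library totals.

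The step from one dose to the next was tested in the same fit. From 0.15 to 0.25 µM, MT1E, MT1G and MT1X were called higher, 3 of the 7 tested genes, where 12.3% of all genes were called and 4.96% were called higher. MT1X had the firmest of these, a log2 fold change of 0.94 (SE 0.18, adjusted p = 0.00261). MT1G rose by 0.78 (SE 0.20, adjusted p = 0.0156), a call lost without 0.15 µM replicate 1, 0.15 µM replicate 2 or 0.25 µM replicate 2 (adjusted p 0.0612, 0.0817 and 0.0675). The call of MT1E (1.23, SE 0.37, adjusted p = 0.0379) was lost in 10 of 25 alternatives. These included leaving out 0.15 µM replicate 2 or replicate 3 (adjusted p = 0.143 each), 0.25 µM replicate 1 (0.0637), 0.25 µM replicate 3 (0.166) or any 1 µM library (0.0519 to 0.0563). It was also lost without replicate 3 of both 0.25 and 0.5 µM (0.93, adjusted p = 0.106).

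From 0.25 to 0.5 µM the change was largest for MT1X, MT1E and MT2A. MT2A rose by 1.94 on the log2 scale (SE 0.16, adjusted p = 5.04e-08), MT1X by 2.28 (SE 0.18, adjusted p = 2.71e-08), MT1E by 2.24 (SE 0.33, adjusted p = 7.05e-05) and MT1G by 1.36 (SE 0.19, adjusted p = 4.29e-05). MTF1 rose by 1.02 (SE 0.12, adjusted p = 2.68e-06) over the same interval. With MTF1, 5 of the 7 tested genes were called, where 30.4% of all genes were called and 14.4% were called higher. MT1F (0.51, 95% interval 0.07 to 0.96, adjusted p = 0.0738) and MT1A (0.69, −0.08 to 1.45, adjusted p = 0.17) were not, although DESeq2 called both (adjusted p = 0.0441 and 0.0283). MT1F was called without 0.5 µM replicate 3 (0.67, adjusted p = 0.0168), and without replicate 3 of both 0.25 and 0.5 µM (0.59, adjusted p = 0.0383).

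Between 0.5 and 1 µM none of the 7 genes was called, and neither was any other, 0% of the 23711 tested. DESeq2 called 0 as well, and 372 genes had an unadjusted p under 0.05 in edgeR. The interval for MT2A, −0.32 to 0.33 around 0.00 on the log2 scale, bounds the change, and the widest, for MT1A, was −0.71 to 0.80. From 0.15 to 1 µM all 7 tested genes were called higher, where 44.5% of all genes were called and 21.5% were called higher. Of these, the call of MT1F (0.65, adjusted p = 0.0184) was lost without 0.15 µM replicate 2 or 1 µM replicate 1. That of MT1A (1.06, adjusted p = 0.0251) was lost without 0.15 µM replicate 1 or 2, or without 1 µM replicate 1 or 3.

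**Figure D2:**
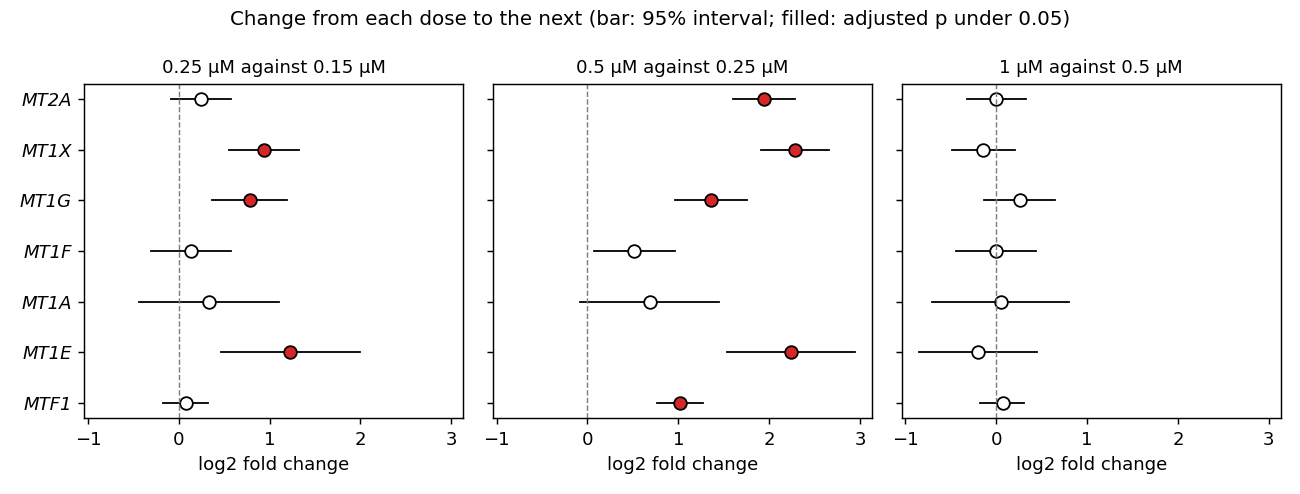
Log2 fold change (x axis, the same in each panel) of 6 metallothionein genes and MTF1 from each martinostat dose to the next. Bars are 95% intervals, and filled points were called at an adjusted p under 0.05. Calls were concentrated in the step from 0.25 to 0.5 µM, with 5 filled points, and there were 0 in the step from 0.5 to 1 µM.

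Levels were compared per kb of merged exon, the length that all annotated transcripts of a gene cover together. This was 914 bases for MT2A, 1727 for MT1X, 396 for MT1A and 7989 for MTF1. Their reference transcripts have 401, 404, 396 and 7937 bases, so the order and the overlaps of genes rest on the length used. By merged length MTF1 was the highest of the 10 genes in untreated cells, at 4.01 ± 0.153 CPM per kb. MT2A followed at 1.89 ± 0.374 and MT1X at 0.543 ± 0.103 (SD, n = 3), and these 3 did not overlap. At 1 µM MT2A led at 139 ± 19.9 CPM per kb, above 99% of all tested genes, and MT1G followed at 34.8 ± 3.12. MT1X at 13.4 ± 2.06 and MT1A at 12.8 ± 1.43 CPM per kb overlapped, as did MTF1 at 6.73 ± 0.183, MT1F at 6.2 ± 1.11 and MT1E at 5.71 ± 0.703 CPM per kb in neighbouring pairs. MT1H, whose promoter held 8 cores, was at 0.0642 ± 0.111 CPM per kb.

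The make-up of the metallothionein mRNA also changed. The sum of the 9 metallothionein genes was 2.85 ± 0.141 CPM without treatment. With 0.15 µM it was 45.9 ± 4.4, with 0.25 µM 59.3 ± 5.77, with 0.5 µM 197 ± 15 and with 1 µM 199 ± 21.7 CPM (SD, n = 3), 69.6 times the untreated level at the highest dose. Each gene's share of these counts does not depend on library scaling. MT2A took the larger part throughout, 60.5 ± 11% of the counts in untreated cells and 63.7 ± 4% at 1 µM. MT1X took 38.8% at most and 26% at least in untreated libraries, against 5.11 to 14.5% in the 12 treated libraries. This share was 23 percentage points lower after treatment (9.9 against 32.9%), with p = 0.0022 in an exact two-sided permutation test, the smallest that 12 against 3 libraries allow, and an adjusted p of 0.00659 over 9 genes. MT1G took 9.81 to 15% in treated libraries and 0 of 217 counts in untreated cells, which allows a share of up to 1.38%. MT1F went from 3.64 to 10.3%, which did not pass (exact permutation p = 0.0418, adjusted p = 0.094) and rests on 8 untreated counts.

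Among treated cells, the shares at 0.5 and 1 µM were set against those at 0.15 and 0.25 µM, 6 libraries on each side. This contrast was chosen after the values were seen, so it is a description with no test. MT1F took 14.8 ± 2.1% of the counts at the lower doses and 5.78 ± 0.666% at the higher ones, and MT1A 5.24 ± 1.04 and 2.52 ± 0.173% (SD, n = 6), both without overlap. The share of MT1X was 4.87 percentage points larger at the higher doses, that of MT2A 5.9 points and that of MT1E 1.34 points. MT1G took 12.5 ± 2.24 and 12.2 ± 1.56%, with overlapping libraries. Shares add up to the whole, so a rise of one lowers the others.

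**Figure D3:**
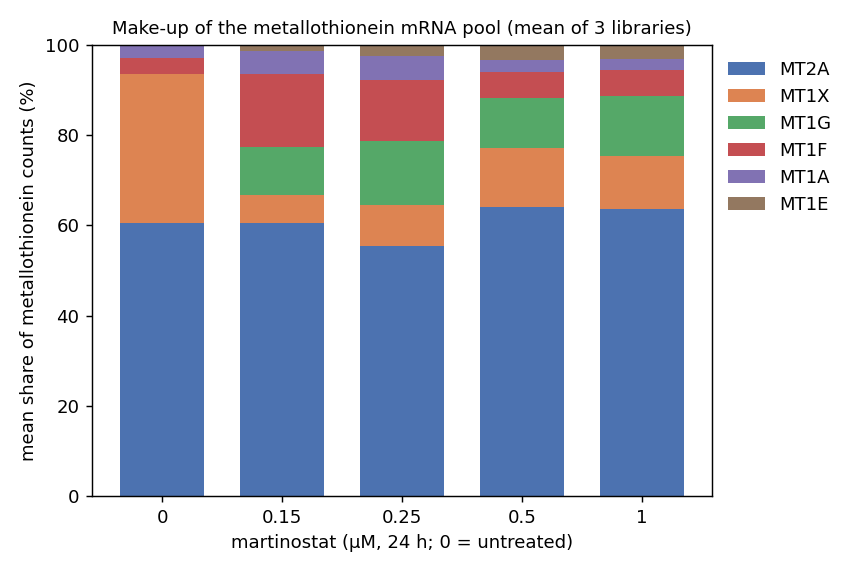
Mean share (y axis, percent, mean of 3 libraries) of each metallothionein gene in all counts of the 9 metallothionein genes, by martinostat concentration (x axis, µM, not to scale). MT1X shrank from 32.9% in untreated cells to 6.02% at 0.15 µM, MT1G appeared in every treated group, and MT1F took 16.1% at 0.15 µM but 5.77% at 1 µM.

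Other metallothionein loci were counted too, 12 in all, of which 5 passed the filter and 4 were called higher at 1 µM. Of all tested genes, 38.8% were called higher and 66.2% called at that dose. The 4 called loci had at most 5 counts each in untreated cells and passed the filter through the treated groups. Their number is therefore a description. MT2P1, a processed pseudogene of MT2A on chromosome 4, had 5 counts in untreated cells and 107 at 1 µM. These were 3.79% and 0.983% of the MT2A counts, and the counts do not show whether reads of the parent gene were assigned to MT2P1. MT1L had 0 counts in untreated cells and 83 at 1 µM, at least 24.4-fold higher, MT1DP 0 and 32, and MT1IP 0 and 9. In a later annotation at least 89.6% of the exon bases of these 3 pseudogenes lie under a non-coding gene. MT1IP was the one that was highest at 0.25 µM, with 49 counts. MT1XP1 (9 and 34 counts) was not called, and the untested loci MT1B, MT1CP, MT1HL1, MT1JP, MT1P1, MT1P3 and MT4 had at most 9 counts in any group.

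Genes around the cluster were called in both directions. Within 500 kb on either side or inside it, 42 other genes are annotated, 39 were in the table and 20 were tested. At 1 µM 12 of these were called higher and 6 lower, where 38.8% of all tested genes were called higher and 66.2% called. At 0.15 µM the numbers were 11 and 4, where 31.9% of all were called higher and 51.2% called. Several genes called higher at 1 µM passed the filter only through the treated groups. Among them, GNAO1-DT, ENSG00000260198 and SLC12A3 had 0 counts in untreated cells and CETP had 8. The numbers of neighbours called are therefore a description. BBS2, a ciliary protein gene on the minus strand whose start lies 6407 bases before the cluster, rose from 3.82 ± 0.368 to 20.3 ± 0.451 CPM at 1 µM, a log2 fold change of 2.41 (SE 0.21, adjusted p = 7.88e-09). On the other side the nearest gene, the pseudogene DPPA2P4, had 0 counts in untreated cells and 2 at most in any group. SLC12A3, the thiazide-sensitive sodium-chloride cotransporter gene, had 0 counts in untreated cells and 0.827 ± 0.349 CPM at 1 µM, at least 4.39 higher on the log2 scale against the floor. GNAO1, a G-protein subunit gene with counts in untreated cells, had a fitted log2 fold change of 6.79. OGFOD1, a prolyl hydroxylase gene of ribosomal protein, had the lowest log2 fold change of the 20, from 110 ± 9.03 to 37 ± 4.35 CPM (log2 fold change −1.57, SE 0.14, adjusted p = 1.02e-08). It ends 109970 bases before the cluster.

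**Figure D4:**
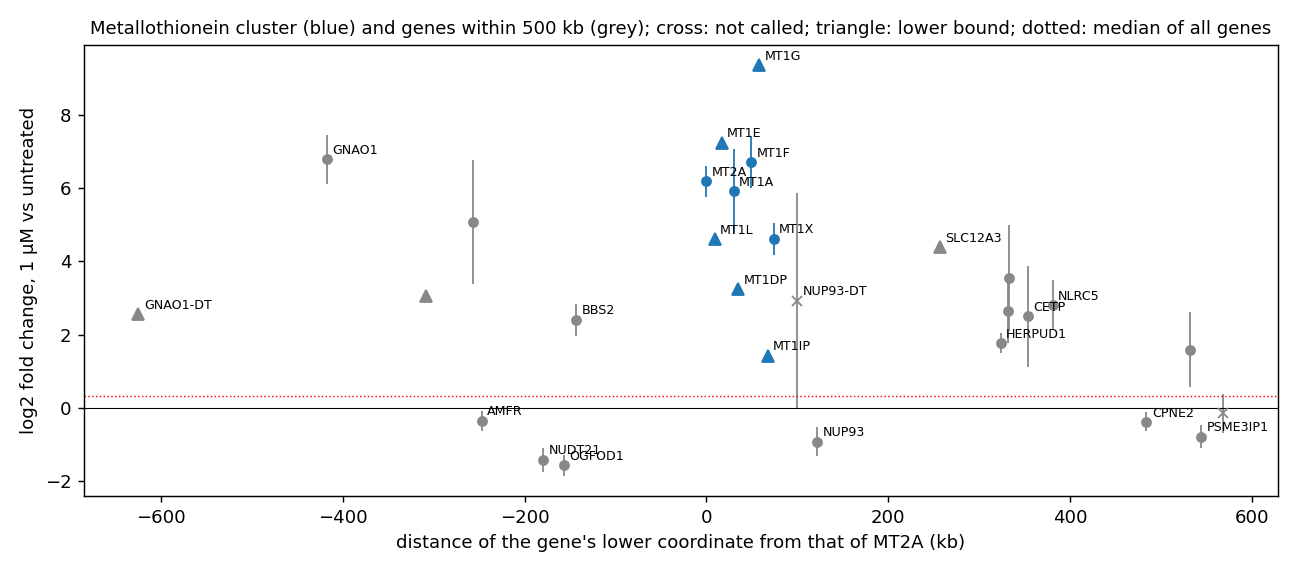
Log2 fold change at 1 µM against untreated cells (y axis) by distance of each gene's lower coordinate from that of MT2A (x axis, kb) for tested metallothionein loci (blue) and genes reaching within 500 kb of the cluster (grey). Bars are 95% intervals, triangles lower bounds for genes with 0 untreated counts, crosses genes not called, and the dotted line the median of all genes (0.32). The metallothioneins MT1G, MT1E, MT1F, MT2A, MT1A and MT1X lay at 4.62 or above, with genes on both sides below 0.

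Other genes of zinc handling were called in both directions. SLC30A genes move zinc out of the cytosol. Of 10 tested, 5 were called higher and 2 lower at 1 µM, where 66.2% of all tested genes were called and 38.8% were called higher. The median log2 fold change was 0.34, against 0.32 for all genes. SLC30A4, a vesicular zinc exporter, rose most, from 0.239 ± 0.125 to 21.8 ± 1.14 CPM (6.49). It had at most 9 counts in an untreated library and passed the filter through the treated groups, so no test is given. SLC30A1, the plasma-membrane exporter that MTF1 is known to control, went from 164 ± 11.2 to 229 ± 28.7 CPM (0.48, SE 0.18, adjusted p = 0.0278). That call was lost without untreated replicate 1 or 2, or 1 µM replicate 1 or 3 (adjusted p 0.062 to 0.0985). SLC30A10, a manganese exporter of the same family, was the lowest (−0.83, SE 0.30, adjusted p = 0.0205). It was higher at 0.15 µM (1.68, SE 0.29, adjusted p = 0.000115), and 7 of 26 alternatives did not call it lower at 1 µM, including those without untreated replicate 2 (adjusted p = 0.0821) or 1 µM replicate 2 (0.0994).

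SLC39A genes move zinc into the cytosol, and of 13 tested, 4 were called higher and 8 lower at 1 µM, against 38.8% of all tested genes called higher and 66.2% called. Their median log2 fold change was −0.81, and that of all genes 0.32. SLC39A8, an importer of zinc and other metals, fell from 330 ± 23.5 to 62.5 ± 9.47 CPM (−2.40, SE 0.18, adjusted p = 8.93e-10). SLC39A2 had the largest rise, from 0.107 ± 0.125 to 0.968 ± 0.211 CPM (3.14, and 4.49 without untreated replicate 1). It had at most 6 counts in an untreated library and passed the filter through the treated groups, so no test is given. At 0.15 µM, 2 of the 13 were called higher and 3 lower, where 51.2% of all genes were called.

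**Figure D5:**
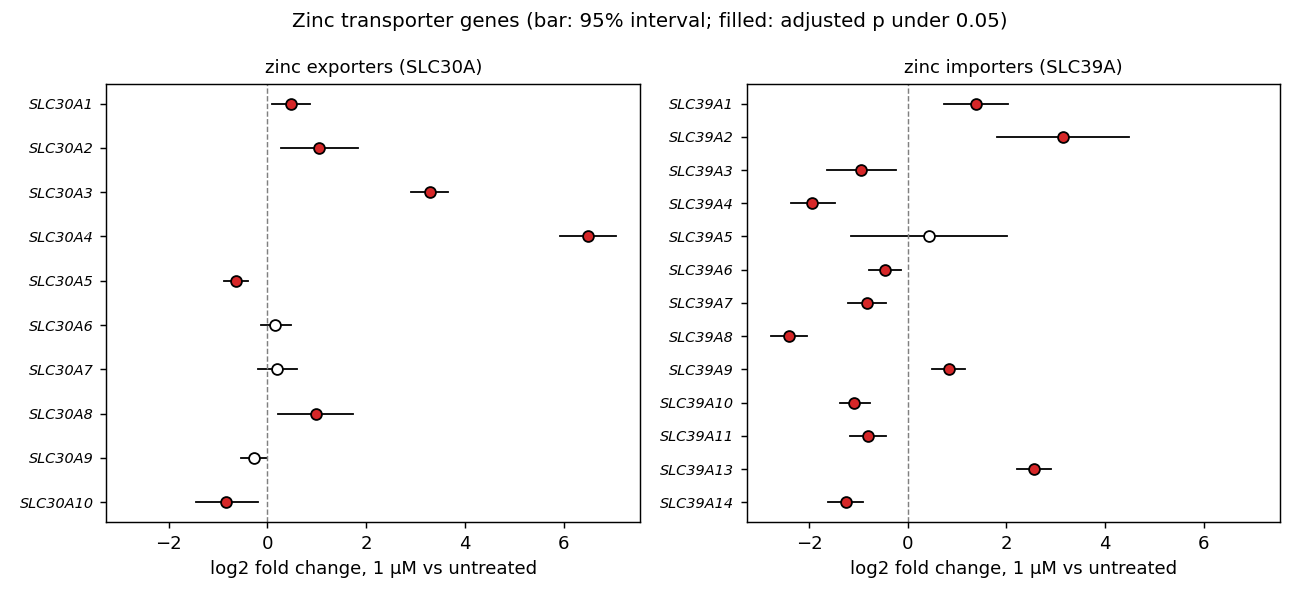
Log2 fold change at 1 µM against untreated cells (x axis) of zinc exporter genes (SLC30A, left) and zinc importer genes (SLC39A, right). Bars are 95% intervals, and filled points were called at an adjusted p under 0.05. Exporters ranged from −0.83 (SLC30A10) to 6.49 (SLC30A4), and importers from −2.40 (SLC39A8) to 3.14 (SLC39A2).

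Of 8 tested genes of copper handling, 2 were called higher and 4 lower at 1 µM, a share near the 66.2% called over all genes. CCS, the copper chaperone of superoxide dismutase, rose from 15.3 ± 1.17 to 65.9 ± 9.72 CPM (2.10, SE 0.20, adjusted p = 2.22e-08), and SOD1, the enzyme it loads with copper, fell from 309 ± 26.5 to 147 ± 8.87 CPM (−1.08, SE 0.16, adjusted p = 6.31e-06). Of 6 tested genes from a list of other metal-inducible genes, 4 were called higher and 1 lower, where 38.8% of all genes were called higher and 66.2% called. PGF, a placental growth factor gene, rose from 0.712 ± 0.0969 to 9.78 ± 1.83 CPM (3.77, SE 0.39, adjusted p = 9.44e-08). SELENOH, a nuclear selenoprotein gene, fell from 15.2 ± 1.47 to 5.13 ± 0.803 CPM (−1.57, SE 0.21, adjusted p = 1.98e-06). HMOX1, the heme oxygenase gene of the same list, was not tested, with 4 counts in untreated cells and 12 at 1 µM.

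Across the 15 libraries the genes whose log2 CPM ran most like that of MT2A, among 10117 genes averaging 10 CPM or more, were TTBK1, BAIAP3 and CAMSAP3 (Pearson r = 0.997 each), XKR7 (0.995) and SLC27A1 (0.994). The other metallothioneins had r of 0.904 (MT1A) to 0.985 (MT1E) with MT2A, and MTF1 had 0.525. Genes that ran most like MTF1 included DUSP1 (0.988), SPAG9 (0.987), KLF10 (0.979) and IFT172 (0.978). DUSP1, a phosphatase gene of the immediate-early response, had the same low point, with a mean of 25.2 CPM without treatment, of 13 CPM with 0.15 µM and of 119 CPM with 1 µM. These are descriptions over 5 clusters of 3 libraries that share doses and depth.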

How the data were processed

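Per the labels and the study's methods, paired-end reads of 100 bases were trimmed (Trim Galore 0.6.10), aligned to hg38 (HISAT2 2.2.1, SAMtools 1.21) and counted per gene (featureCounts 1.5.3, GENCODE 38) by the authors. Handling of strand and multi-mapped reads is not given in the sources used here. The deposited counts are raw whole numbers per gene. The FPKM deposited by the authors divide by genomic span and library total, so counts were used and FPKM only as an alternative. Counts of 23711 genes were fitted with edgeR 4.0.16 (R 4.3.3; TMM, filterByExpr, robust quasi-likelihood, 1 fit of 15 libraries, Benjamini-Hochberg adjustment). Alternatives used DESeq2 1.42.0, limma 3.58.1 and other scalings, filters and library sets. The fit was tested on simulated data. CPM per kb used merged exon length (GENCODE 44). The genes and lists were chosen with earlier results of these data known. Named genes were the members, SLC30A1, the highest and lowest called gene of each list at 1 µM, the nearest neighbours, and the 5 most alike genes, of which 1 is not reported here. Same-numbered libraries deviated together between 0.25 and 0.5 µM (r = 0.217, 0.212 and 0.503), and at most 0.0716 elsewhere. Deviations were taken from each group's mean, so a shared deviation of replicate 3 also raises r for the other numbers. A pairing is therefore not shown. The labels state none, and the main fit used none. Floors, the bounds that rest on counts of 0 and the counting intervals of MT1F and MT1A cover counting error only. They leave out the spread between libraries. Promoters of 6 members, MT1A, MT1E, MT1F, MT1G, MT1M and MT3, were not analysed here.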

Additional observations from a re-analysis of the deposited data

How the results depend on the processing

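The calls of MT2A and MT1X against untreated cells at every dose held under 26 alternatives, with log2 fold changes at 1 µM of 5.83 to 6.57 and 3.35 to 5. With at least 10 counts in every library, which removes genes near 0 in untreated cells, the numbers of members called against untreated cells became 3, 2, 3 and 3 in order of dose, 1 from 0.15 to 0.25 µM, 3 from 0.25 to 0.5 µM and 3 from 0.15 to 1 µM, and those of neighbours 6, 7, 6 and 6. Neighbours called at 0.15 µM were 9 with limma on log2(FPKM + 1). Leaving out 1 library gave 1 to 3 members from 0.15 to 0.25 µM.

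At 0.25 µM MTF1 changed sign with library totals (0.18), TMM computed on genes averaging 10 CPM or more (0.08) and limma with pseudocounts of 1 (0.06) and 0.1 (0.15), as did SLC30A1, which was not called (0.12, 0.02, 0.11 and 0.11). From 0.5 to 1 µM MT1A, not called, was −0.06 without replicate 3 of 0.25 and 0.5 µM together, and ranged from −0.06 (without 0.5 µM replicate 3) to 0.14 (without 1 µM replicate 2) when 1 library was left out. Uncalled share differences that changed sign were those of MT2A after treatment (−5.17 to 5.82 percentage points when 1 library was left out, the extremes without untreated replicates 1 and 2), of MT1A after treatment (−0.597 to 3.88, the latter without untreated replicate 1 and called) and of MT1G at high against low doses (−0.898 to 0.139, and 3.91 in a sum without MT2A). Without untreated replicate 1 no untreated count of MT1A remained, so the call of its share rests on no untreated count. The cause of these changes was not tested.

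A fit with the replicate number as a block called 7 members at each dose against untreated cells, 3, 5 and 0 over the steps between doses and 7 from 0.15 to 1 µM, and it changed no call of a member. With 3 libraries per group, genes under a few counts per library could not be tested, and 67 to 77 metallothionein counts per untreated library limit the shares there.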
